A study of Homo sapiens with 480 samples.

Results

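The cells described here are those of day 16 that carried the label TRA-1-60 negative in a study of BJ fibroblasts, an established line of human neonatal skin fibroblasts, made to express the reprogramming factors OCT4, SOX2, KLF4 and MYC (OSKM) from induced viruses. All 96 cells with this label were taken, and 85 were kept for having at least 2000 genes detected and ACTB or GAPDH among them; they belong to 480 cells in the series, of which 460 passed the same filter. The other groups used below were BJ cells without the factors (labelled WT, 92 kept), cells at day 2 of factor expression (96 kept), cells at day 8 (92 kept), and the TRA-1-60 positive cells of day 16 (95 kept). All groups but BJ thus carried the 4 factors, and all came from the same fibroblast line. TRA-1-60 is a carbohydrate epitope on the protein of PODXL that pluripotent cells display, and cells were sorted on it. How the virus was switched on, and how many infections, cultures or chips a group came from, is not given in the sources used here. Each group was therefore counted as 1 culture, no difference between groups was tested, and the cells were not treated as replicates.

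Fibroblasts given these factors mostly do not become pluripotent. In textbook accounts, cells that fail to convert can stop dividing through the p53 target CDKN1A (p21) and the CDKN2A and CDKN2B locus (p16, ARF and p15), whose products hold back the cyclin-dependent kinases or stabilise p53. Fibroblasts build collagen-rich matrix, while cells on the way to pluripotency lose matrix genes, take up epithelial junction genes and later switch on the endogenous pluripotency network. The interferon response is a separate programme in which secreted interferons, or RNA sensors inside the cell, lead STAT and IRF proteins to the promoters of antiviral genes.

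Levels are FPKM after each cell was scaled to sum to 1000000, and detected means a level of 1 or more. The kept cells had 3646 to 7362 detected genes, with a median of 5871. The 11 cells left out had 115 to 1398, so no cell lay near the limit; 10 of the 11 had ACTB or GAPDH. FPKM totals of the kept cells ran from 577139 to 808386 before rescaling, and small RNA and mitochondrial RNA genes took at most 2.63% of a cell. The files give no counts, so the depth of a cell is unknown and the number of detected genes is used beside the results in its place. No 2 cells held identical values. A gene seen in none of the 85 cells may still be detectable in up to 3.53% of such cells, an allowance for counting error only.

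The matrix and arrest genes given as markers of these cells were found in most of them, which describes the cells and does not test the sort, since the markers were chosen with these data known. COL3A1 and MFAP4 were detected in all 85 cells, LUM in 84, CDKN1A in 83 and CDKN2A in 77, and 74 cells had all 5. Of 10 fibroblast markers each cell had 7 to 10, and BJ cells had 6 to 10. Markers of other cell types were sparse: a cell had 0 to 3 of 10 keratinocyte genes, 0 to 2 of 8 endothelial genes, 0 to 2 of 8 blood genes, 0 to 4 of 8 neural genes, 0 to 2 of 6 muscle genes, 0 to 1 of 6 adipocyte genes, 0 to 4 of 9 bone and cartilage genes and 0 to 3 of 7 trophoblast genes. The defining genes PTPRC (blood), KDR (endothelium), KRT5 (basal keratinocytes) and SOX10 (neural crest) were listed at 0 in every cell. A few members of these lists were frequent all the same, such as KRT17 in 67.1% of cells, TEK in 77.6%, TUBB3 in 81.2% and COMP in 80%.

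The interferon response was uneven among these cells, and the promoters of 4 of its genes show the element that the response uses. ISG15 (a ubiquitin-like modifier), IFI6 and IFI27 (mitochondrial or membrane proteins of the antiviral response) and IFITM3 (a membrane protein that blocks virus entry) are shown because they span the pattern described below: IFITM3 was on in every cell and the other 3 were not. Each line is the 250 bases before the gene's start, 5′ to 3′ on the gene's strand, from RefSeq on GRCh38.p14; capitals mark matches to the core of the interferon-stimulated response element on either strand, which is GAAA, then any 2 bases, then GAAA, or TTTC, any 2 bases and TTTC on the other strand. Overlapping matches were counted separately.
ISG15 (chr1:1013247-1013496, plus strand): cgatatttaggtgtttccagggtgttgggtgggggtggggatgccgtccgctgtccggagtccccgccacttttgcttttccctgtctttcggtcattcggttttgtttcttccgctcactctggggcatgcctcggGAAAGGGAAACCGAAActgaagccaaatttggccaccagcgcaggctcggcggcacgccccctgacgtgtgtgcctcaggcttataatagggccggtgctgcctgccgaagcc
IFI6 (chr1:27672193-27672442, minus strand): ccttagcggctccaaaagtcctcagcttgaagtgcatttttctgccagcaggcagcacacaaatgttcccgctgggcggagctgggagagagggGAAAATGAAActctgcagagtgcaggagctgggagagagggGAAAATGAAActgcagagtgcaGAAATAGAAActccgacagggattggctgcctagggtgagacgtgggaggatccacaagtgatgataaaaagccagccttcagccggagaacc
IFI27 (chr14:94110486-94110735, plus strand): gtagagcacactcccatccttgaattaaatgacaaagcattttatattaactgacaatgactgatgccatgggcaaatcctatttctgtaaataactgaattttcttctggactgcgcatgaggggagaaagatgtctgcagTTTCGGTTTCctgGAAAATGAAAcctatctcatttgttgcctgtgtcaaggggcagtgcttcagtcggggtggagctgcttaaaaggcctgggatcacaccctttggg
IFITM3 (chr11:320861-321110, minus strand): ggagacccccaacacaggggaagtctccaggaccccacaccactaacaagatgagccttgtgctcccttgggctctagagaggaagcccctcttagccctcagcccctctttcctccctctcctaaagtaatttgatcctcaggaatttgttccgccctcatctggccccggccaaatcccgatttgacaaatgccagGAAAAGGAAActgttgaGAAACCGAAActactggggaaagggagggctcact
IFI6 held 3 matches and each of the others 2. Of the 39 interferon effectors listed, 32 were matched by symbol to the RefSeq promoters, and 24 of these (75%) held the motif within 250 bases before to 50 after a start, against 4.38% of 27305 genes. Counted by window of 300 bases, 29 of 45 effector windows (64.4%) and 3.57% of 35116 windows held it. OAS1 and UBE2L6 were among the 8 effectors without a match in this window. The motif thus stood both in the promoter of IFITM3, which was on in every cell, and in those of ISG15, IFI6 and IFI27, which were not.

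Interferon effectors, the antiviral genes that the response switches on, were detected in widely different numbers from cell to cell. A cell had 6 to 37 of the 39, with a median of 19, against medians of 10 in BJ, 16 at day 2, 10 at day 8 and 7 in the positive cells. In 79 cells (92.9%, 95% interval 85.3 to 97.4, exact binomial) at least 10 were on, and in 41 (48.2%, 37.3 to 59.3) at least 20. At least 20 were on in 2.17% of BJ cells, 28.1% of day 2 cells, 2.17% of day 8 cells and no positive cell. The counts showed no wide gap, since neighbours in the order of cells never differed by more than 4 genes. Classes that overlap need not leave a gap, and their presence was not tested. The cell with most effectors had 37 with 5850 detected genes, close to the median, and the cell with fewest had 6 with 5642.

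**Figure D1:**
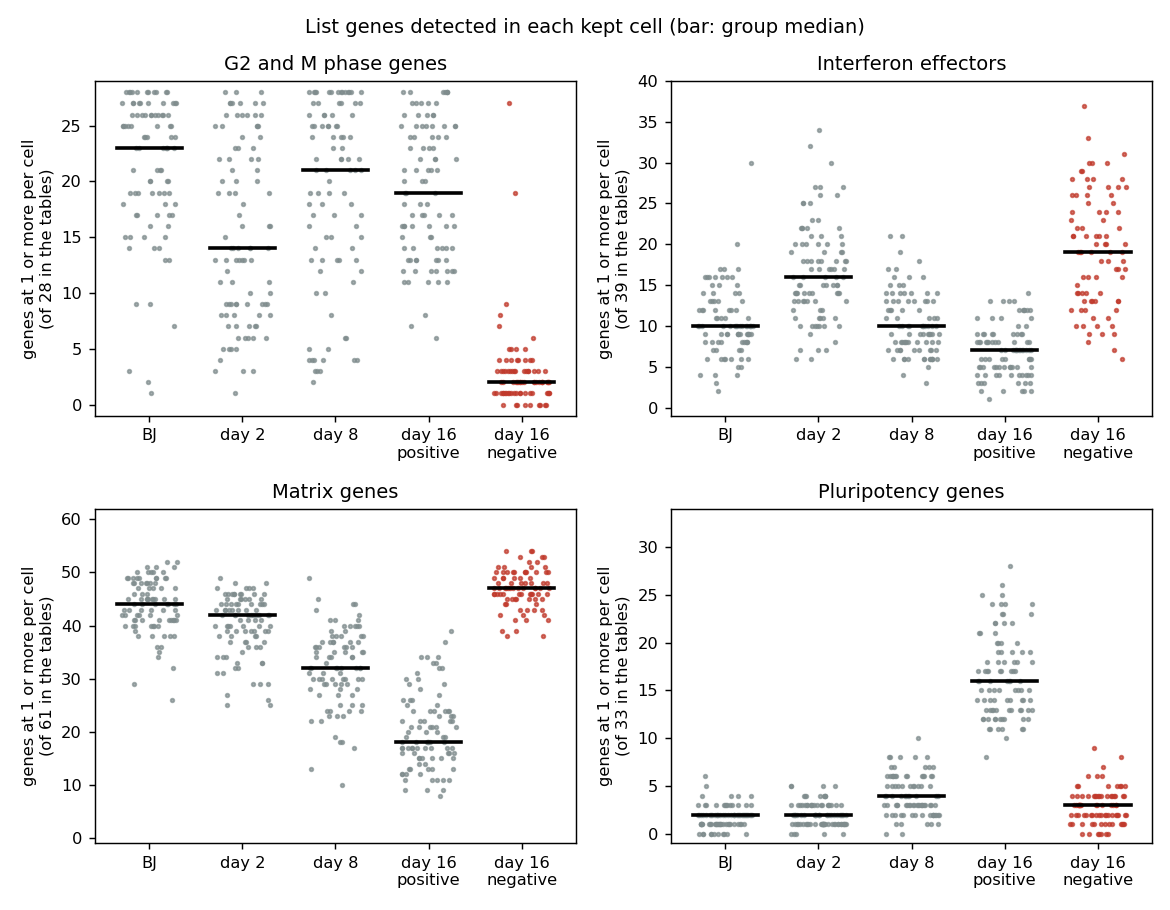
Genes of 4 lists at a level of 1 or more (vertical axes, number of genes) in each kept cell of the 5 groups (horizontal axes), 1 point a cell, with a bar at the group median. In the negative cells (red) the medians were 2 G2 and M phase genes, 19 interferon effectors, 47 matrix genes and 3 pluripotency genes.

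IFITM3 ran from 664 to 10972 with a median of 2380, and its SD over cells was 0.72 on the log2(level + 1) scale. IFITM1, a related membrane protein, ranged from 0 to 14991 (median 1047) and was detected in 94.1% of cells; the IFITM genes are close copies, and how reads were split between them is not known. ISG15 ranged from 0 to 4534 (median 478) with an SD of 3.77 on the same scale and was missing from 15 cells. IFITM3 was therefore a gene of every cell, and ISG15 was high in most and absent from some.

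IFI6 ranged from 0 to 1990 (median 307) and was detected in 89.4% of cells. IFI27 ranged from 0 to 2061 (median 138) and was detected in 65.9%. MX1, a GTPase that traps viral particles, ranged from 0 to 1208 (median 61.3) and was detected in 58.8%. These 3 genes were each absent from some cells and above 1000 in others. IFIT1 (58.8% of cells), IFIT3 (54.1%) and OAS1 (55.3%), which bind viral RNA or make the signal that activates RNase L, were on in 54.1% to 58.8% of cells.

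Effectors tended to be on in the same cells. Of 528 pairs of the 33 effectors detected in at least 20% of cells, 35.04% had a Spearman rank correlation of 0.3 or more over the 85 cells (median 0.24). Among all 40477503 pairs of genes detected as widely, 0.516% reached 0.3 and the median was 0.015. ISG15 had a rho of 0.62 with MX1, 0.40 with IFI6 and 0.43 with IFITM3, while its rho with RPL21, a ribosomal protein gene whose level differs between the tables, was -0.06. IFI44L, ISG15, MX1 and IFITM1 stood in the middle of the set, each with a median rho of 0.35 to 0.38 with the other effectors. IFI27 was patchy in its own way, with a median rho of 0.11 with the others, as were IFITM2 (0.04), TRIM22 (0.08) and IFIT5 (0.09). Correlations over cells describe this culture, and all genes of a cell share its depth.

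**Figure D2:**
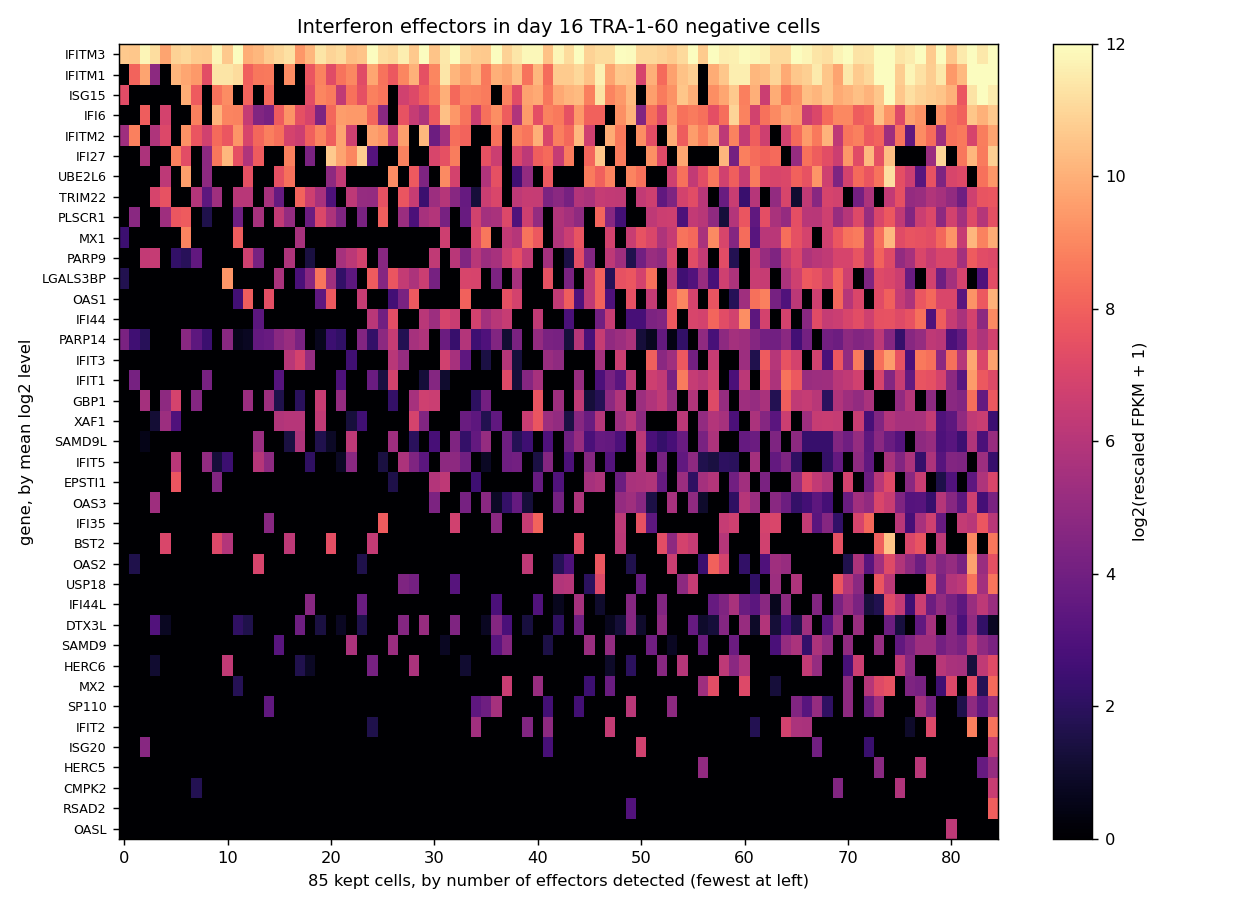
Level of the 39 interferon effectors (rows, by mean log2 level) in the 85 negative cells (columns, by number of effectors detected), as log2(rescaled FPKM + 1). IFITM3 is bright in every column, ISG15 and IFI6 drop out mainly at the left, and MX1, IFIT3 and OAS1 fill in towards the right. Columns are ordered by these same genes, so a general filling in from left to right follows from the order.

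Of the factors that carry the signal, IRF9, a DNA-binding protein, was detected in 83.5% of cells (median 67.5), and STAT2, with which it forms a complex, in 87.1% (median 15.3). Among the RNA sensors, EIF2AK2 (PKR) was on in 94.1% of cells and DDX58 (RIG-I) in 47.1%, while IFIH1 (MDA5) was on in 14.1%. All 6 interferon genes listed, IFNB1 among them, stayed under a mean of 1; IFNL1 was detected in 1 cell. The score of the whole interferon list, the mean of log2(level + 1) over its measured members, had a rho of 0.34 with the number of detected genes. The 21 cells with fewest effectors (6 to 13) had a median of 5182 detected genes and the 21 with most (25 to 37) a median of 6058; the part of depth in this difference was not tested, but partial rho, at a fixed number of detected genes, is given beside rho where the relations of scores are described. The interferon score had a rho of 0.0054 (partial -0.04) with SOX2 and 0.08 (0.06) with MYC, whose viral and endogenous copies share 1 value each.

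Outside the list, genes that ran closely with the interferon score at a fixed number of detected genes included DDX60L (partial rho 0.49), LAP3 (0.39), SNAP47 (0.39), FMR1 (0.38), WDR73 (0.38), B2M (0.38) and DDX60 (0.36). LAP3 (leucine aminopeptidase), DDX60 and B2M (the light chain of HLA class I molecules) are themselves known to respond to interferon. B2M was in every cell, at 1364 to 6583. At the other end were CCDC28A (-0.42), PHLDB2 (-0.41) and RPS6KB1 (-0.40). Few genes went with the score at all: 0.324% of 8951 genes had a partial rho of 0.3 or more and 0.257% of -0.3 or less.

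Inhibitors of the cell cycle were on in nearly every cell. CDKN1A ranged from 0 to 2731 with a median of 231, and was detected in 83 of 85 cells (97.6%, 91.8 to 99.7). CDKN2A ranged from 0 to 926 with a median of 110 and was detected in 77 (90.6%, 82.3 to 95.8); the p16 and ARF transcripts share this value. CDKN2B was detected in 77 cells as well, at 0 to 240 with a median of 45.4. Both CDKN1A and CDKN2A were on in 75 cells (88.2%), all 3 in 70, and no cell lacked both CDKN1A and CDKN2A. Only CDKN2A was on in 2 cells and only CDKN1A in 8.

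The other inhibitors were sparse: CDKN1B (p27) was on in 29.4% of cells, CDKN2C (p18) in 23.5%, CDKN1C (p57) in 14.1% and CDKN2D (p19) in 12.9%. The amounts of the main 3 ran together weakly at most, with a rho of 0.21 for CDKN1A with CDKN2A, 0.26 for CDKN1A with CDKN2B and 0.24 for CDKN2A with CDKN2B. A cell with much p21 transcript was thus not regularly one with much CDKN2A.

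Mean levels in BJ, day 8 and positive cells were 58.5, 32.1 and 25.9 for CDKN1A, against 313 in the negative cells. For CDKN2A they were 10.2, 26.6 and 19.5, against 200, and for CDKN2B 0.648, 1.31 and 2.20, against 61.3. Of the 7 CDK inhibitors, CDKN1A, CDKN1B, CDKN1C, CDKN2A and CDKN2B had a mean at least 2-fold above BJ (1 added to both means) and none was 2-fold below; 31.7% of all 13163 measured genes were at least 2-fold above BJ and 13.2% below. The same 5 were at least 2-fold above day 8 cells, where 28.8% of genes were above and 10.6% below. Against the positive cells, where 21.6% of genes were above and 26% below, CDKN1A, CDKN2A, CDKN2B, CDKN2C and CDKN2D were above, CDKN1B was below and CDKN1C was neither. Over all measured genes the median log2 ratio to BJ was 0.51, and 70.7% of the genes past 2-fold were higher; with FPKM as deposited these were 0.25 and 57.3%. These comparisons share the negative cells and set levels across tables that may have been normalized separately.

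Targets of p53, which acts upstream of CDKN1A, were on at unequal frequency. GDF15, a stress-induced secreted factor, ranged from 0 to 1311 (median 84.4) and was detected in 76.5% of cells. PLK2, a polo-like kinase, ranged from 0 to 1901 (median 209) and was detected in 88.2%, CCNG1 (cyclin G1) in 97.6%, TP53I3 (an oxidoreductase) in 81.2% and SESN1 (sestrin 1) in 49.4%. MDM2, the ubiquitin ligase that removes p53, was detected in 98.8%. MDM2 and GDF15 varied with CDKN1A (rho 0.45 and 0.44), whereas TP53I3 (0.05), PHLDA3 (0.09), CCNG1 (0.11) and PLK2 (-0.03) did not follow it. The targets set beside CDKN1A thus differed in how far they followed it. Over the whole arrest list of CDK inhibitors and p53 targets, 5% of 300 pairs of genes detected in at least 20% of cells had a rho of 0.3 or more. Among all pairs of genes detected as widely it was 0.516%. Against BJ, 13 of 20 p53 targets had means at least 2-fold higher and none lower, beside 31.7% and 13.2% of all genes. Against the positive cells 9 were higher and CCNG1 and AEN lower, beside 21.6% and 26%.

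**Figure D3:**
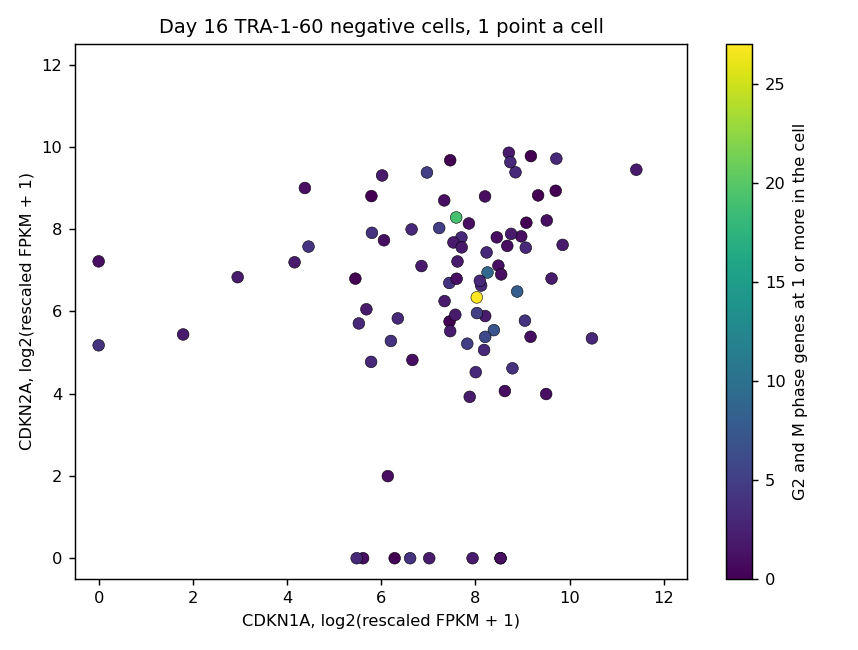
CDKN1A (horizontal) and CDKN2A (vertical) in each of the 85 negative cells, as log2(rescaled FPKM + 1), coloured by the number of G2 and M phase genes detected. Most cells lie at high values of both, 8 lie on the lower edge without CDKN2A and 2 on the left edge without CDKN1A, and the cells with 27 and 19 G2 and M phase genes lie among the rest.

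Genes of dividing cells were nearly absent. Of 28 genes of G2 and mitosis a cell had a median of 2, against 23 in BJ, 14 at day 2, 21 at day 8 and 19 in the positive cells. At most 3 were on in 67 cells (78.8%) and none in 9. At least 7 were on in 5 cells (5.88%, 1.94 to 13.2), against 96.7% of BJ cells, 85.4% of day 2 cells, 84.8% of day 8 cells and 98.9% of positive cells. By mean, 27 of the 28 were at least 2-fold below BJ and none above, where 13.2% of all genes were below. HMGB1, HMGB2, LMNB1 and EZH2, nuclear genes known to decline in senescent cells, also had means at least 2-fold below BJ; LMNB1 (lamin B1) was detected in 2.35% of the negative cells and 28.3% of BJ cells.

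The exceptions were 2 cells. The first had 27 of the 28 genes, with UBE2C, the ubiquitin-conjugating enzyme of mitotic exit, at 2270, CDK1 at 1233 and TOP2A at 371, and the second had 19, with TOP2A at 23.8 and neither UBE2C nor CDK1. The next cells had 9, 8 and 7. Both exceptions had CDKN1A (260 and 192), CDKN2A (80.01 and 311) and CDKN2B (99.5 and 68.9), both had COL1A1 (346 and 926) and COL3A1 (767 and 606), and they ranked 7th and 9th of 85 in detected genes. Doublets cannot be called from values of this kind.

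These 2 cells make up most of what the group shows of mitosis. Of the 27 G2 and M phase genes with any signal, 20 had more of their summed level in them than in all other cells, with a median share of 74.01%. The mean of UBE2C was 30.8 with them and 4.20 without, that of CDK1 17.3 and 2.84, and that of TOP2A 4.79 and 0.15. CCNB1 (cyclin B1), on in 30.6% of cells, and ECT2, a regulator of cytokinesis on in 36.5%, were the widest of the list.

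DNA replication genes kept more of a presence, with a median of 6 of 28 per cell (1 to 16). PCNA, the sliding clamp that also serves DNA repair, was on in 80% of cells at 0 to 493 (median 142), and RRM1, a subunit of ribonucleotide reductase, in 54.1%. By mean, 22 of the 28 S phase genes were at least 2-fold below BJ and none above, where 13.2% of all measured genes were below and 31.7% above. CDKN1A had a rho of 0.04 with the S phase score, so its amount did not order the cells by that score. With the G2 and M phase score its rho was -0.09. A cell had a median of only 2 of those 28 genes, so this score could hardly show a relation.

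Matrix genes were found throughout the group. A cell had 38 to 54 of the 61 listed, with a median of 47, and BJ cells had 26 to 52. All 85 cells had at least 29 of the 58 measured ones (95.8 to 100%). Measured here means a mean of 1 or more in these same cells, so this bar was easy to pass and does not set the group apart. The medians were 44 in BJ, 42 at day 2, 32 at day 8 and 18 in the positive cells, so by detection the group stood close to BJ. Of the 34 matrix genes with a mean of 100 or more, 18 were detected in every cell (52.9%), against 25.9% of all 1428 genes with such a mean. The 2 sets were not matched in level, and some matrix genes stood far above 100, such as TIMP1 with a mean of 8687.

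The main fibrillar collagens were present throughout, over wide ranges of level. COL1A2 ranged from 250 to 8246 (median 3355), COL1A1 from 65.3 to 4019 (median 1105) and COL3A1 from 130 to 2582 (median 932). COL6A3, a chain of the beaded collagen VI, ranged from 45.6 to 2366 (median 846). None of them was missing from a cell. COL1A1 and COL1A2, whose products form 1 triple helix, had a rho of 0.82, and COL3A1 had 0.57 with COL1A2 and 0.48 with COL1A1. Less widespread collagens were COL8A1, on in 78.8% of cells, and COL11A1, on in 58.8%.

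The elastic fibre gene MFAP4, a microfibril-associated glycoprotein, ranged from 426 to 7410 with a median of 2190. It was present in every cell, and its mean of 2584 stood beside 48.2 in BJ, 72.1 at day 8 and 84.1 in the positive cells. Its relatives MFAP2 (97.6% of cells) and MFAP5 (95.3%) and the latent TGF-beta binding gene LTBP2 (all cells) were nearly as widespread, while EMILIN1 (38.8%) and LTBP1 (28.2%) were not. MFAP4 had a rho of 0.53 with COL1A1.

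Proteoglycans of the small leucine-rich family differed in reach. LUM (lumican) ranged from 0 to 3771 (median 880) and was missing from 1 cell, and ASPN (asporin) ranged from 0 to 993 (median 334) and was missing from 3. DCN (decorin) was on in 82.4% of cells, OGN (osteoglycin) in 56.5% and PRELP in 35.3%. LUM had a rho of 0.31 with COL3A1 and 0.21 with ASPN. Of the 8 measured proteoglycan genes, 7 had means at least 2-fold above BJ and none below, where 31.7% of all measured genes were above and 13.2% below.

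Adhesive and matricellular genes ranged from widespread to patchy. SPARC, a collagen-binding protein, ranged from 124 to 3439 and was in every cell. FN1 (fibronectin) ranged from 0.557 to 2910 (median 682), and TGFBI from 8.41 to 4248 (median 924). CTGF and CYR61, targets of the YAP and TGF-beta pathways, had a rho of 0.45 with each other. POSTN (periostin) split the cells most, at 0 to 899 and detected in 50.6% of them, and CTHRC1, a secreted protein of matrix-making fibroblasts, was on in 75.3%.

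TIMP1, the metalloproteinase inhibitor, was the highest matrix gene, at 263 to 33056 with a median of 7274. TIMP3 ranged from 1.94 to 4675 (median 462). MMP2 (gelatinase A), at 72.4 to 1779, and PCOLCE, the enhancer of procollagen processing, at 8.09 to 1642, were in every cell as well. The crosslinking genes LOXL1 and PLOD2 were on in 50.6% and 63.5%. Against BJ, 28 of 58 matrix genes had means at least 2-fold higher and THBS1, LOX and LOXL2 at least 2-fold lower, beside 31.7% of all measured genes higher and 13.2% lower. Against day 8 cells 49 of 58 were higher and none lower, beside 28.8% and 10.6% of all genes, and against the positive cells 50 were higher and COL14A1 and VCAN (versican) lower, where 21.6% of all measured genes were higher and 26% lower. By role, 9 of 14 elastic fibre genes and 7 of 13 collagens stood above BJ, but none of 10 adhesive genes did.

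Traces of the pluripotency network were found in single genes, not as a network. A cell had 0 to 9 of 33 pluripotency genes, with a median of 3, and 14 of the 33, LIN28A and ZFP42 among them, were listed at 0 in every cell. At least 3 were on in 46 cells (54.1%, 42.96 to 64.98), against 20.7% of BJ, 33.3% of day 2, 75% of day 8 and all positive cells. All 46 cells also had at least 29 of the measured matrix genes, but so did every cell of the group, so this does not set them apart. At least 1 of the core genes NANOG, TDGF1, NODAL, DPPA4, UTF1 and DNMT3B was on in 12 cells (14.1%) and at least 2 in 1 cell.

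Most of the count came from 3 genes. ETV4, an ETS factor that FGF signalling induces, ranged from 0 to 514 (median 40.3) and was on in 75.3% of cells, against 28.3% in BJ and 80.4% at day 8. L1TD1, which binds RNA and belongs to the pluripotent state, ranged from 0 to 285 (median 8.90) and was on in 60%, against 9.78% in BJ, 60.9% at day 8 and 93.7% of positive cells. These genes were about as frequent as at day 8.

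LEFTY2, an antagonist of Nodal, was on in 31 cells (36.5%), in 3.26% of day 8 cells and in every positive cell. It ranged from 0 to 4408 in the negative cells, with a mean of 98.3 that was 47.01 without its highest cell, which was also the kept cell with the fewest detected genes (3646). L1TD1 and LEFTY2 were both on in 22 cells and neither in 25, with a rho of 0.13. NANOG was on in 4 cells, at most at 42.7, against a mean of 172 in the positive cells.

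The cell with most pluripotency genes had 9, SALL4, GDF3 and ESRG among them, with LEFTY2 at 696 and L1TD1 at 88.5. It lacked CDKN2A and CDKN2B but had CDKN1A at 47.99, 47 matrix genes and COL1A1 at 247. The next cell had 8, with CDKN1A at 301, CDKN2A at 172 and 46 matrix genes, and the third had 7, with NANOG at 3.54 and 53 matrix genes. Each of them had COL1A1, COL3A1, LUM and MFAP4 detected, but their levels differed. The cell with 8 had LUM at 3.14 and MFAP4 at 426, the lowest MFAP4 of the group, against group means of 999 and 2584. The cell with 7 had LUM at 1559 and MFAP4 at 3259. COL1A1 in the cell with 9 stood below the group mean of 1162.

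Of the reprogramming factors, MYC was on in 95.3% of cells (0 to 1086, median 297), SOX2 in 83.5% (0 to 156, median 29.8) and KLF4 in 65.9% (0 to 136, median 5.14), and 46 cells had all 3. POU5F1 (OCT4) was listed at 0 in every negative cell and stayed under a mean of 1 in the positive cells too, so no level of it was read. SOX2 had a rho of 0.34 with L1TD1, 0.24 with LEFTY2 and 0.29 with the pluripotency score, whereas MYC had 0.02 with that score. PODXL itself was on in 81.2% of these TRA-1-60 negative cells, at 0 to 538 (median 41.8), against 89.1% at day 8 and 95.8% of positive cells.

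The epithelial genes found most often were JUP, KRT18, DSP and KRT8. A cell had 2 to 9 of 35, with a median of 4, and 12 of the 35 were listed at 0 in every cell, CDH1 (E-cadherin), CLDN3 and ESRP1 among them. At least 5 were on in 40 cells (47.1%, 36.1 to 58.2), against 27.2% of BJ, 75% of day 2, 86.96% of day 8 and 97.9% of positive cells; counted at a level of 10 or more, the share was 25.9%. KRT18 ranged from 0 to 5482 (median 572) and was on in 97.6%, KRT8, its pairing partner, ranged from 0 to 652 (median 7.20) and was on in 60%, and their rho was 0.05. KRT18 reached further than KRT8, with 1 cell that had KRT8 alone; both keratins have many near-identical pseudogenes, whose reads may be shared with them.

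JUP (plakoglobin), a junction protein shared by adherens junctions and desmosomes, was on in 98.8% of cells at 0 to 183 (median 36.7), against 7.61% in BJ. DSP (desmoplakin) was on in 78.8% and in 78.3% of BJ cells. CLDN4 was on in 24.7% and SPINT2, an inhibitor of the matriptase axis, in 16.5%. Against day 8 cells, 15 of 22 measured epithelial genes were at least 2-fold lower and only JUP higher, and 8 of 15 pluripotency genes were lower and LEFTY1 and LEFTY2 higher, beside 10.6% of all genes lower and 28.8% higher. Against BJ, 9 of 15 measured epithelial genes were higher and 3 lower, beside 31.7% and 13.2% of all genes. Of 10 measured pluripotency genes, 7 were higher and 2 lower. Several of the higher means leaned on the highest cell of the gene. Without it the means of CLDN7, OCLN and KRT19 were 1.82, 1.05 and 3.91, in place of 2.94, 1.64 and 8.25. Those of GDF3, LEFTY1 and LEFTY2 were 4.82, 0.73 and 47.01, in place of 8.99, 1.29 and 98.3. With 1 added to both means, 0.73 cannot be 2-fold above any level, so LEFTY1 was called higher through its highest cell alone. The other calls were not recomputed without such cells.

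Scores of matrix, interferon, cell division, pluripotency and epithelial genes showed no relation over the 85 cells of the size of 0.3 that was read as one. The matrix and interferon scores had a rho of 0.24 and a partial rho of 0.20. Matrix had -0.013 (partial -0.09) with the G2 and M phase score, 0.11 (0.09) with pluripotency and -0.09 (-0.16) with epithelial genes, and interferon had -0.04 (-0.19) with G2 and M phase. CDKN1A had -0.05 (-0.09) with the matrix score and 0.16 (0.11) with the interferon score, and CDKN2A -0.0031 (0.0052) and 0.04 (0.06). Some of these scores had little coherence of their own, which limits what they can show: among genes detected in at least 20% of cells, none of 6 pairs of pluripotency genes, none of 10 pairs of epithelial genes and not the 1 pair of G2 and M phase genes reached 0.3, against 9.87% of 1540 pairs of matrix genes and 24.8% of 1081 pairs of the interferon list. Among the 21 cells with fewest effectors the median was 45 matrix genes, CDKN1A 184 and CDKN2A 148, and among the 21 with most it was 48 matrix genes, CDKN1A 295 and CDKN2A 122.

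Of 102 pairs of gene lists without a shared member, 7 had a rho of 0.3 or more and 5 still did at a fixed number of detected genes; none reached -0.3. The strongest of the 5 was the matrix score with the inflammatory list, which holds cytokines, proteases and their inhibitors and the IGF-binding proteins (rho 0.53, partial 0.51). The matrix score also went with contractile genes of the actin cytoskeleton (0.48 and 0.46, but 0.23 when detected genes were counted in place of levels) and with mesenchymal factors (0.34 and 0.33). Inflammatory and contractile scores ran together (0.39 and 0.35), as did glycolysis and cholesterol synthesis (0.52 and 0.41). Interferon and inflammatory scores had 0.20 and 0.09. The 5 relations thus joined matrix, contractile, inflammatory and mesenchymal lists on one side and the 2 metabolic lists on the other, and none included the interferon list.

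**Figure D4:**
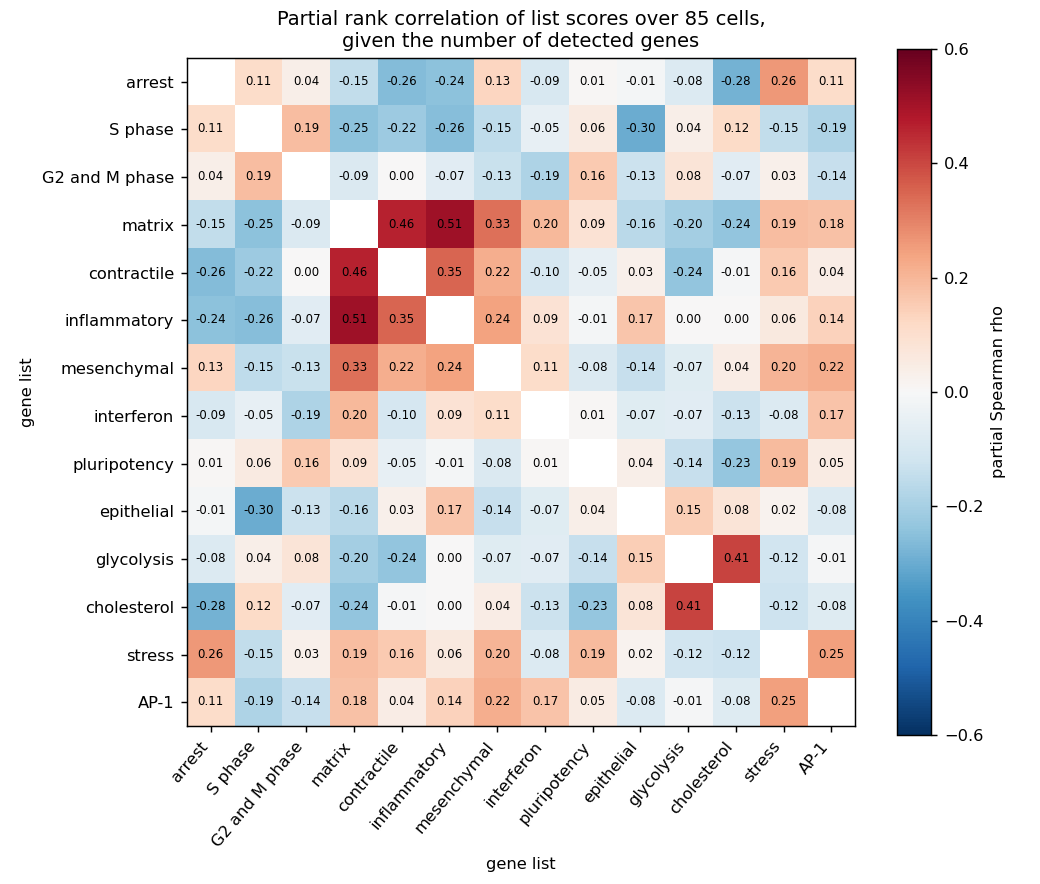
Partial Spearman correlation, at a fixed number of detected genes, of the scores of 14 gene lists (both axes) over the 85 negative cells; blank squares are a list with itself. The block of matrix, contractile, inflammatory and mesenchymal lists holds values of 0.22 to 0.51, and the interferon row stays between -0.19 and 0.20.

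The inflammatory list was carried by a few constant members. SERPINE2, a protease inhibitor, was in every cell at 50.3 to 2516 (median 727), as was IGFBP5 at 9.26 to 757 (median 250). IGFBP7 was on in 97.6% (median 594). The cytokines and chemokines were patchy: CXCL1 was on in 60% of cells, CXCL8 (interleukin 8) in 42.4%, CCL2 in 41.2% and IL6 in 2.35%, against 18.5%, 29.3%, 35.9% and 42.4% of BJ cells. The collagenase gene MMP1 was on in 20%. Of 22 measured inflammatory genes, 11 had means at least 2-fold above BJ, CXCL1, CXCL8, CCL2, IL1A and IL1B among them, and 6 were below, IL6 and MMP1 among them, where 31.7% of all measured genes were above and 13.2% below. The mean of CXCL1 was 229 against 16.1 in BJ and that of CCL2 135 against 21.3, while that of IL6 was 1.03 against 44.4. Without their highest cells the means of IL1B and IL1A, 58.8 and 7.25, were 37.7 and 4.78, against 14.7 and 0.00096 in BJ.

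TAGLN, an actin-binding protein of contractile cells, ranged from 0 to 6086 (median 986), and ACTA2 (smooth muscle actin) ranged from 0 to 2184 (median 96.6) and was on in 77.6% of cells. TAGLN had a rho of 0.40 with CTGF and 0.22 with ACTA2. The contractile score ran closest with MYL6 (partial rho 0.67) and MYL12A (0.57), light chains of myosin, followed by the noncoding RNA MIR503HG (0.56); 1.11% of 8986 genes reached 0.3 with it and 0.601% reached -0.3. Outside the list, genes close to the matrix score included MYH9 (nonmuscle myosin, partial rho 0.57), MICAL2 (an actin oxidase, 0.55), FSTL1 (0.52), TPM1 (0.49), RAMP1 (a receptor-modifying protein, 0.49), INHBA (an activin subunit, 0.48) and COL4A2 (0.47). The share of genes this close was small: 1.97% of 8942 genes had a partial rho of 0.3 or more with the matrix score and 0.671% of -0.3 or less, DGAT1 (-0.43), PNKD (-0.42) and LDHB (-0.41) among these.

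The G2 and M phase and the epithelial scores, like the interferon score, had few companions. For the first, MED31 (0.46), LOC100506844 (0.42) and FOXP4 (0.41) were highest, with 0.345% of genes at 0.3 or more and 0.2% at -0.3 or less. GMNN, the replication inhibitor geminin (0.37), was the last of the 8 highest. For the second, DNAJB1 (0.47), TPD52L1 (0.45) and PTHLH (0.41) were highest and EXOC3-AS1 (-0.46) and CKS2 (-0.42) lowest, with 0.322% and 0.567%. PTHLH, the gene of parathyroid hormone-related protein, was on in 96.5% of the negative cells at 0 to 4167 (median 353), against a mean of 0.259 in BJ and 127 at day 8.

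Principal components of the 6300 genes with a mean of 10 or more and detected in at least 20% of cells were computed as well. The first held 4.09% of the variance and followed the number of detected genes (rho 0.97), so it was not read as biology. The second held 2.22% and had a rho of 0.62 with the matrix score and 0.40 with the mesenchymal score, -0.46 with the epithelial, -0.35 with the glycolysis and -0.31 with the cholesterol synthesis score, and 0.14 with interferon. Its order of cells thus went with the matrix score and against the epithelial score. These 2 scores had no relation of that size with each other (-0.09, partial -0.16). Its extreme cells were the 2 kept cells with the fewest detected genes, at -0.53 (3646 genes) and 0.38 (3876 genes). The next cells stood at -0.21 and 0.19. Its rho with the number of detected genes was -0.16, and the part of depth in it was not tested. At its high end were RAMP1, MRPS6, TMEM98, CTHRC1, QPCT, COMP, NNMT, EVA1A, EGR2 and MICAL2, and at its low end C19orf33, CD24, CKB, CENPX, HSD17B7, PODXL, PMP22, PYGL, MCCC1 and FAM20C.

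Genes at the 2 ends differed in where else they were found. C19orf33 averaged 60.96 in the negative cells and 316 at day 8, CKB (brain creatine kinase) 140 and 354, and CD24, a surface glycoprotein, 225 and 311, with 1.51, 25.1 and 0.841 in BJ. RAMP1 averaged 511 in the negative cells, 3.04 at day 8 and 9.36 in BJ, COMP (a cartilage matrix protein) 411, 3.56 and 1.86, and EGR2, an early growth response factor, 132, 4.75 and 0.297. The low end thus held genes that were as high or higher at day 8. PMP22 (372 against 161) and FAM20C (170 against 34.96) were not among them. At the high end, RAMP1, COMP and EGR2 were low in both BJ and day 8 cells. CTHRC1, at the same end with a mean of 102, was not 2-fold above BJ. The remaining genes of the high end are not compared here. CD24 and PODXL had a rho of 0.33, and each had -0.23 with COL3A1. PODXL had 0.32 with the epithelial score and -0.10 with the pluripotency score.

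**Figure D5:**
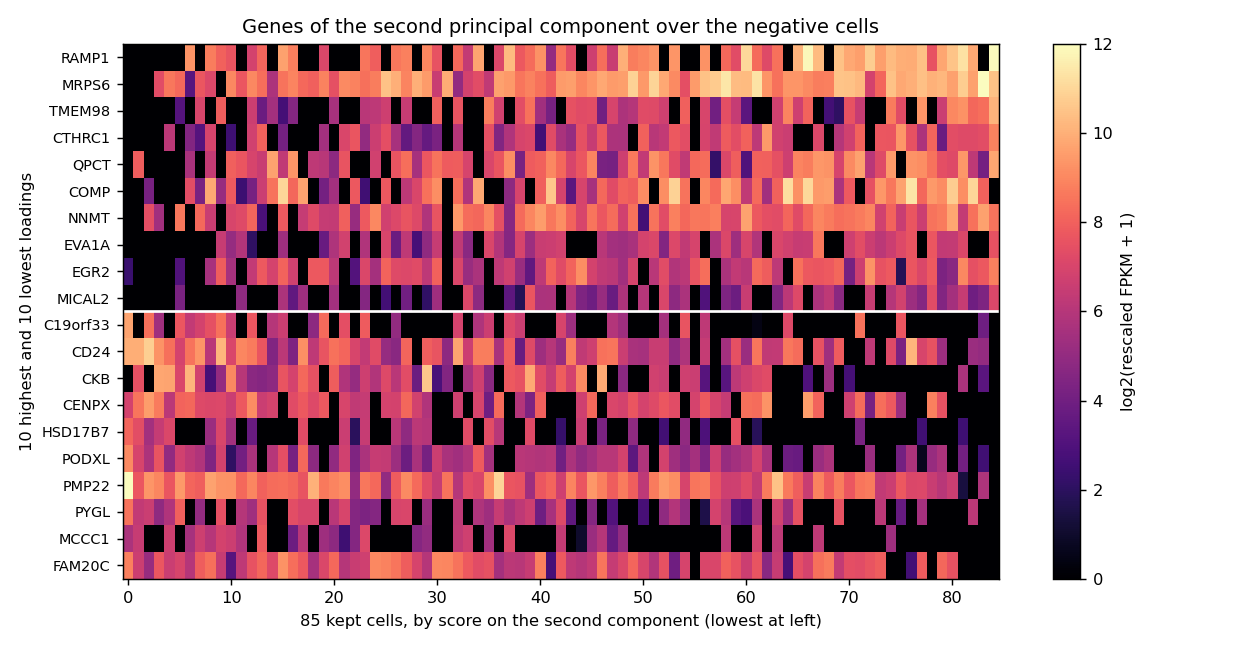
Levels, as log2(rescaled FPKM + 1), of the 10 genes with the highest and the 10 with the lowest loadings on the second component (rows, split by the white line) in the 85 negative cells, ordered by their score (columns). The upper genes fill in from left to right while CKB, C19orf33 and MCCC1 thin out, and the change looks gradual. Genes and order come from the same component, so these directions follow from the choice. Columns are in rank order, so distances between scores are not shown. The first and last columns are the 2 kept cells with the fewest detected genes.

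Measured against genes of like mean, ISG15 varied most of all 4580 genes ranked, with an SD of 3.77 that lay 2.09 above the running median. RNASE1 (a secreted ribonuclease, 0 to 3332, on in 51.8% of cells and in no BJ cell), MT2A (a metallothionein, on in 87.1%), SNHG9, IFI27, COMP, PRSS3, CMC1, COMMD1, NDUFA3, CD52, CCDC12, IFI27L2, NDUFS4 and HIST1H4C followed. The list thus held 2 interferon effectors, ISG15 and IFI27. CD52, a small surface glycoprotein best known from lymphocytes, was on in 44.7% of cells at 0 to 3677 and in 27.2% at day 8, while the leukocyte marker PTPRC was at 0 in every negative cell. HIST1H4C, a histone gene of dividing cells, averaged 519 here and 6592 in BJ.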

How the data were processed

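Cells were trypsinized and captured on Fluidigm C1 chips run with STRT scripts, and polyadenylated RNA went into Nextera XT libraries, per the labels' protocols. The authors deposited FPKM, 1 table of 27021 genes per group. STAR, Cuffnorm and hg19 appear in the submitters' processing notes, and their versions are not given in the sources used here. It is not stated if Cuffnorm was run on all 5 tables at once, nor how multi-mapped reads were counted. No column was left unused (0). Depth is unknown.

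Each cell was rescaled to 1000000. Kept cells had at least 2000 genes at 1 or more and ACTB or GAPDH. A list score is the mean of log2(level + 1) over members with a mean of 1 or more. Relations are Spearman correlations over 85 cells, partial ones given the number of detected genes; 0.3 in size was read as a relation. Gene pairs and partners needed detection in 20% of cells. Differences of 2-fold compare means with 1 added, without a test, since each group is 1 culture. Intervals are Clopper-Pearson at 95% and, like the limit for a share of 0 (3 counts), cover counting error only. Members and gene lists were chosen with earlier results of these data known.

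Named genes were the 5 markers; per role the 4 members of highest mean and the 2 of highest SD among those in 20 to 80% of cells; the 15 genes farthest above the running median (201 genes) of SD, with a mean of 10 or more and in 10 to 90% of cells; 8 partners at either end of 4 scores (some genes are not reported here); and 10 loadings at either end of 2 components. Genes named outside this rule were chosen after their values were seen, from the lists or as further markers. Other cells, marker genes and pairs of genes were likewise chosen for description. Steps were tested on simulated data. Python 3.11.15, numpy 2.4.6, pandas 2.3.3, scipy 1.17.1 and matplotlib 3.10.9 were used. Promoters came from RefSeq (GRCh38.p14); no coordinates of the deposited files' build were used.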

Additional observations from a re-analysis of the deposited data

How the results depend on the processing

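Shares of cells, some of the correlations and the list counts beside BJ, 22 results in all, were recomputed under other choices, giving 248 values. Of these, 230 stayed within the tolerance (the 95% interval of a share, 0.15 of a correlation, 1.5 times a count). The only recomputed correlation read as a relation, that of matrix with contractile genes, kept its sign. Other relations between scores were not put through these choices. Keeping all 96 cells lowered the share with CDKN1A to 89.6%, with CDKN2A to 81.3%, with both to 79.2%, with at least 10 interferon effectors to 82.3% and with at least 50% of the matrix genes to 88.5%. It raised the correlations of matrix with interferon to 0.47, with G2 and M phase to 0.25, with pluripotency to 0.26, with epithelial genes to 0.24 and with contractile genes to 0.64, those of interferon with G2 and M phase to 0.22 and with inflammatory genes to 0.44, and that of CDKN1A with G2 and M phase to 0.11; the 11 added cells had at most 1398 detected genes. Detection at 5 and at 10 gave at least 3 pluripotency genes in 41.2% and 28.2% of cells and at least 5 epithelial genes in 35.3% and 25.9%. Counting detected genes in place of mean log2 levels gave 0.23 for matrix with contractile genes, and the cause was not tested. Leaving out the 2 cells with most G2 and M phase genes, or the kept cell with fewest genes, alternatives chosen after seeing the data, moved none of the shares and correlations past the tolerance. No paired analysis was possible because each group is 1 culture and no result comes from a test. Depth per cell is unknown, so a gene not detected in a cell may be present in it.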
